A study of Mus musculus with 3 samples.

Results

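The 35 genes described here serve protein folding in the endoplasmic reticulum, the compartment where secreted proteins are made, and the folding of collagen in particular. They were picked by symbol for that known function, with earlier results of these data known, and all 35 were found among the 30406 genes listed in every library. By role, 15 are general chaperones and folding enzymes, 7 are stress sensors and their targets and 2 belong to the translocon. The other 11 are counted with the folding and export of collagen and called collagen-specific factors. They include Ppib, which also serves other secreted proteins, and the transcription factors Creb3l1 and Creb3l2, which have no folding client. The data are single-cell RNA counts from intervertebral discs of untreated shh-cre:R26R-tdTomato mice at P30 (postnatal day 30), sorted for tdTomato, which marks cells that express Shh and all their descendants. All 3 libraries belong to this 1 group, and each is a sequencing batch that pooled litter-matched animals, so no library stands for a single mouse. The comparison is therefore between classes of cells within the same pools. The p-values measure how far differences between classes vary from pool to pool. For each gene, 1 estimate of that spread is shared by all classes in a fit. Lumbar, thoracic and caudal discs were mixed and digested with collagenase before sorting, and the discs had been cut out through the bony endplates. Cells with markers of bone and blood were present in the sorted libraries, and how they came to be there was not tested.

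Proteins bound for secretion enter the endoplasmic reticulum through the Sec61 channel, where Hspa5 (BiP) binds unfolded chains, the lectins Canx and Calr retain sugar-bearing ones, and the protein disulfide isomerases join cysteines. Procollagen needs more than this: lysines and prolines are hydroxylated by the Plod enzymes and by the complex of P3h1, Crtap and Ppib, the triple helix is held by Serpinh1 (Hsp47), and the long rods leave in large carriers formed with Mia3 (TANGO1). Cells that secrete much collagen, such as osteoblasts and chondrocytes, are known for an extensive endoplasmic reticulum, while the nucleus pulposus, the gel-like core of the disc that descends from the notochord, makes a matrix rich in proteoglycan and type II collagen. When unfolded protein accumulates, the sensors Ern1, Eif2ak3 and Atf6 act, through Xbp1 and Atf4 among others, on promoters of chaperone genes, many of which carry the endoplasmic reticulum stress element (ERSE). Creb3l1 (OASIS) and Creb3l2 (BBF2H7) are related membrane-bound factors known from osteoblasts and chondrocytes, respectively.

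The promoter letters set the general chaperones beside the collagen-specific factors without using any expression value. RefSeq promoters (GRCm38.p6) were at hand for 29 of the 35 members, with none for Creb3l1, Hyou1, Manf, Plod2, Fkbp10 and Atf6, and the 250 bases before each RefSeq start were searched on both strands. The ERSE, which is CCAAT, then 9 bases of any kind, then CCACG, was present in 7 of 13 general chaperone promoters, against 37 of all 32851 promoters of that length (0.113%). It was in 0 of 8 promoters of collagen-specific factors, in 0 of 6 of the stress genes and in 0 of 2 of the translocon. The element was first described in promoters of Hspa5, Hsp90b1 and Calr, so its presence there is background. Members were counted by gene and all promoters by entry. The 8 sites are shown because, among the members searched, this motif was found in general chaperones only. Other differences in sequence between the groups were not searched for. Each site is written in the direction of the motif with its fixed letters in capitals.
Hspa5 (chr2:34772025-34772043, same strand as the gene, 47 to 65 bases before the start): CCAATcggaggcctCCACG
Pdia6 (chr12:17266491-17266509, same strand as the gene, 80 to 98 bases before the start): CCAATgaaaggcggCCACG
Dnajc3 (chr14:118937827-118937845, same strand as the gene, 87 to 105 bases before the start): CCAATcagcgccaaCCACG
Hsp90b1 (chr10:86705533-86705551, opposite strand to the gene, 89 to 107 bases before the start): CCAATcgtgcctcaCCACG
Creld2 (chr15:88819520-88819538, opposite strand to the gene, 108 to 126 bases before the start): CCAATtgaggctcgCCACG
Canx (chr11:50325800-50325818, same strand as the gene, 127 to 145 bases before the start): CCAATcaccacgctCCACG
Calr (chr8:84847075-84847093, opposite strand to the gene, 144 to 162 bases before the start): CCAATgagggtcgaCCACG
Hsp90b1 (chr10:86705638-86705656, same strand as the gene, 194 to 212 bases before the start): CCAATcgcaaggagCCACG
Hsp90b1 held 2 sites and each of the other genes 1, between 47 and 212 bases before the start. The related ERSE-II, which is ATTGG, 1 base of any kind and CCACG, was in 1 of 29 member promoters, that of the stress target Herpud1, and in 0.0304% of all promoters.
Herpud1 (chr8:94386377-94386387, same strand as the gene, 42 to 52 bases before the start): ATTGGgCCACG
The UPRE, TGACGTGG, and a heat shock element, which is GAA, TTC and GAA with 2 bases of any kind after each of the first pair, were in 0 of 29 member promoters, and in 0.563% and 0.466% of all promoters. The ERSE and ERSE-II share their last letters, CCACG, with which the reverse complement of the UPRE begins. A match is a stretch of letters and no match says only that these letters are not in the window.

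The 150 bases before the RefSeq start are printed for the best-known member of each group, with the ERSE of Hspa5 in capitals and the gene's own strand shown.
Hspa5 (chr2:34771940-34772089, plus strand): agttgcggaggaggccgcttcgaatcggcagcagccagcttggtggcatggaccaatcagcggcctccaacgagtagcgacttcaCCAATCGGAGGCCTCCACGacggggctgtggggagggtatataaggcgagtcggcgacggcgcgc
Serpinh1 (chr7:99353240-99353389, minus strand): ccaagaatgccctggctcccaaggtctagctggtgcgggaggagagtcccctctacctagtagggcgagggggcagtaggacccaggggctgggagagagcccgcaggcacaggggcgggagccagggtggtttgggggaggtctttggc
The Hspa5 window held 1 ERSE and the Serpinh1 window 0. In mm10, GENCODE vM21 places Hspa5 at chr2:34771970-34777547, starting upstream of the RefSeq start used here, and Serpinh1 at chr7:99345376-99353239.

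Cells were assigned to classes by marker genes that are not members, and a cell that met more than 1 class was left out. The nucleus pulposus class needed a UMI (unique molecular identifier, a counted transcript) of at least 3 of Krt8, Krt18, Krt19 and T and at least 1% of UMIs from mitochondrial (mt-) genes. It held 110, 119 and 8 cells in libraries 1, 2 and 3. The chondrocyte class needed at least 4 of Col2a1, Acan, Col9a1, Col9a2, Col9a3, Matn3, Hapln1, Cnmd, Comp and Chad. It allowed at most 1 of the 4 nucleus pulposus markers, so no cell could meet both classes. Chondrocyte markers therefore did not remove a cell from the nucleus pulposus class. The chondrocyte class held 1003, 366 and 73 cells, the osteoblast class 37, 199 and 624, the stromal class of marrow 35, 24 and 39, and the blood class 3350, 9286 and 8585. Median UMIs per cell were 4442.5 to 10596 in nucleus pulposus, 8382 to 10787.5 in chondrocytes, 8848 to 18843 in osteoblasts, 6720 to 7743 in stromal cells and 7177.5 to 8738 in blood. The deposited matrices held 64695292 UMIs on 7430 barcodes in library 1, 145925353 on 11767 in library 2 and 137188648 on 11032 in library 3. Levels are CPM, the summed UMIs of a class in a library scaled to a common total with TMM factors. Cells of a sum are not replicates, and n is the number of libraries. In the 8 nucleus pulposus cells of library 3, 1 UMI stands for 14.7 CPM, so that sum is shown as a level but did not enter the tests.

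Several sums held markers of other classes. Levels of marker lists are given as CPM without TMM factors, unlike those of collagen chains and members. In library 1, the nucleus pulposus cells had chondrocyte gate markers at 20063 CPM, against 11578 and 8180 in libraries 2 and 3. Leaving out cells with at least 2 of Comp, Chad, Cnmd and Matn3 left 81 of the 110 and lowered their collagen chains from 18411 to 4593 CPM. The osteoblast sum of library 1 had osteoblast markers at 9191 CPM, against 48810 and 65098, and chondrocyte markers at 7259, against 62.0 and 56.4. Endothelial markers reached 4420 and 1825 CPM in the stromal sums of libraries 1 and 2, against 198 in library 3, and plasma cell markers reached 5525 CPM in that of library 2. Loose fibroblast markers were at 2761 and 2158 CPM in the same sums, against 205 in library 3. The stromal sum of library 3 had late neutrophil markers at 3355 CPM, against 369 and 214, and no alternative removes those. Counts are therefore also given without the mixed nucleus pulposus and stromal cells and the osteoblast sum of library 1. This alternative, chosen after seeing the data and called the combined exclusion below, keeps 13, 18 and 36 stromal cells. It drops nucleus pulposus cells on cartilage matrix markers. Lower levels of collagen-specific factors in nucleus pulposus under it are therefore not independent of that choice. Libraries 2 and 3 shared 224 barcodes, 25 of them in a class, and with shared barcodes left out the number of members called did not change in any of the 7 comparisons.

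Summed over their members, the general chaperones spanned a smaller range between the 5 classes than the collagen-specific factors. The 15 general chaperones summed to 2880, 2333 and 1751 CPM in the nucleus pulposus of libraries 1, 2 and 3, and to 4379, 4461 and 4240.3 in chondrocytes. The osteoblast sums were 3435, 4037 and 3890.2 CPM, the stromal sums 2119, 3174 and 3799, and the blood sums 3626, 3285 and 3548. Nucleus pulposus was thus below chondrocytes, osteoblasts and the blood sums in 3 of 3 libraries, while it overlapped the stromal sums. Of the blood cell types, promyelocytes and plasma cells lay above nucleus pulposus. B lineage cells (1965, 2001 and 2195 CPM), erythroid cells (1695, 2085 and 2021), late neutrophils and macrophages or monocytes overlapped it.

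The 11 collagen-specific factors summed to 493, 576 and 549.8 CPM in blood. In nucleus pulposus they reached 2436, 1669 and 779.7, overlapping the stromal sums of 1449, 1718 and 2235. The chondrocyte sums were 4852, 5293 and 5549 CPM. Osteoblasts had 4643, 9763 and 11080.5, where the low value is the library with chondrocyte markers in its osteoblast sum. The ratio of collagen-specific to general UMIs, which is read between classes only, was 0.669 ± 0.204 in nucleus pulposus (SD, n = 3). It was 1.20 ± 0.101 in chondrocytes, 2.21 ± 0.771 in osteoblasts, 0.605 ± 0.0726 in stromal cells and 0.155 ± 0.0198 in blood (SD, n = 3 each). Nucleus pulposus and stromal ratios overlapped, and chondrocytes lay above nucleus pulposus in every library. Most of the blood ratio came from 1 gene, since without Ppib it was 0.0327 ± 0.000491 (SD, n = 3).

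**Figure D1:**
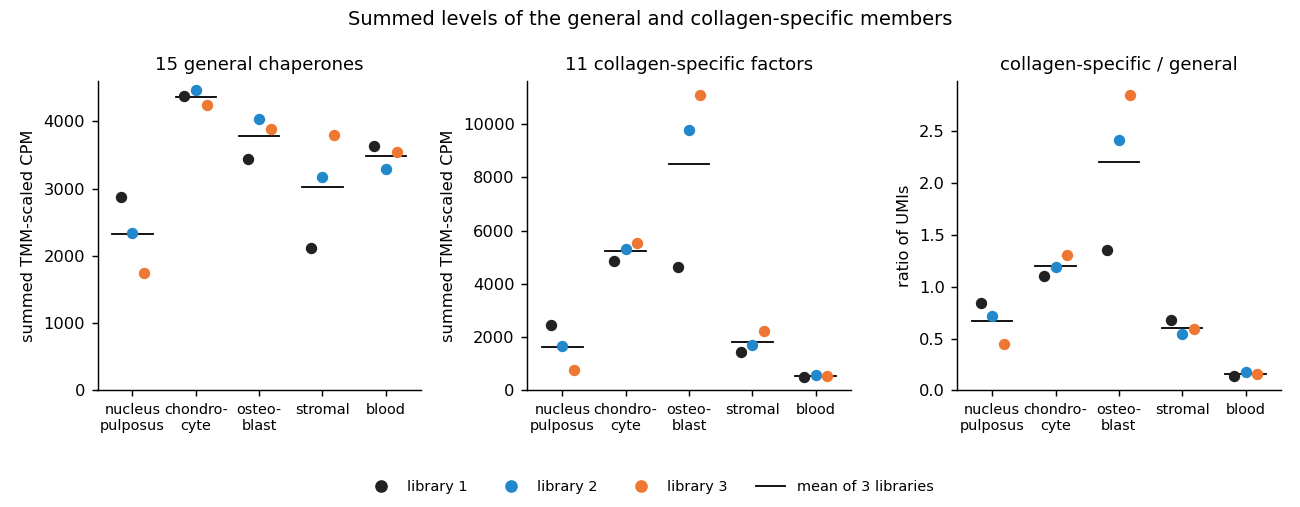
Summed TMM-scaled CPM of the 15 general chaperones (left) and the 11 collagen-specific factors (centre), and the ratio of their UMIs (right), by class, with 1 point for each library and a line at the mean. General chaperones stay between 1751 and 4461 CPM, whereas collagen-specific factors run from 493 CPM in blood to 11080.5 in osteoblasts.

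The range of single members showed the same split. Across the 5 class means, the highest was 2.13 times the lowest for the median general chaperone, with a range over members of 1.42 (Canx) to 10.1 (Sdf2l1). For the collagen-specific factors the median was 37.7 times, from 2.21 to 625. Blood was the lowest class for 9 of 11 collagen-specific factors and nucleus pulposus for 11 of 15 general chaperones. The highest class was osteoblast for 7 of 11 collagen-specific factors and chondrocyte for 7 of 15 general chaperones. These means include the 8 nucleus pulposus cells of library 3, where 1 UMI stands for 14.7 CPM and Sdf2l1 had 0 UMIs. Calr, for example, was at 349 and 295 CPM in nucleus pulposus of libraries 1 and 2 and at 246 and 305 in stromal cells. Orders between close classes and the range of Sdf2l1 thus rest in part on that sum.

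**Figure D2:**
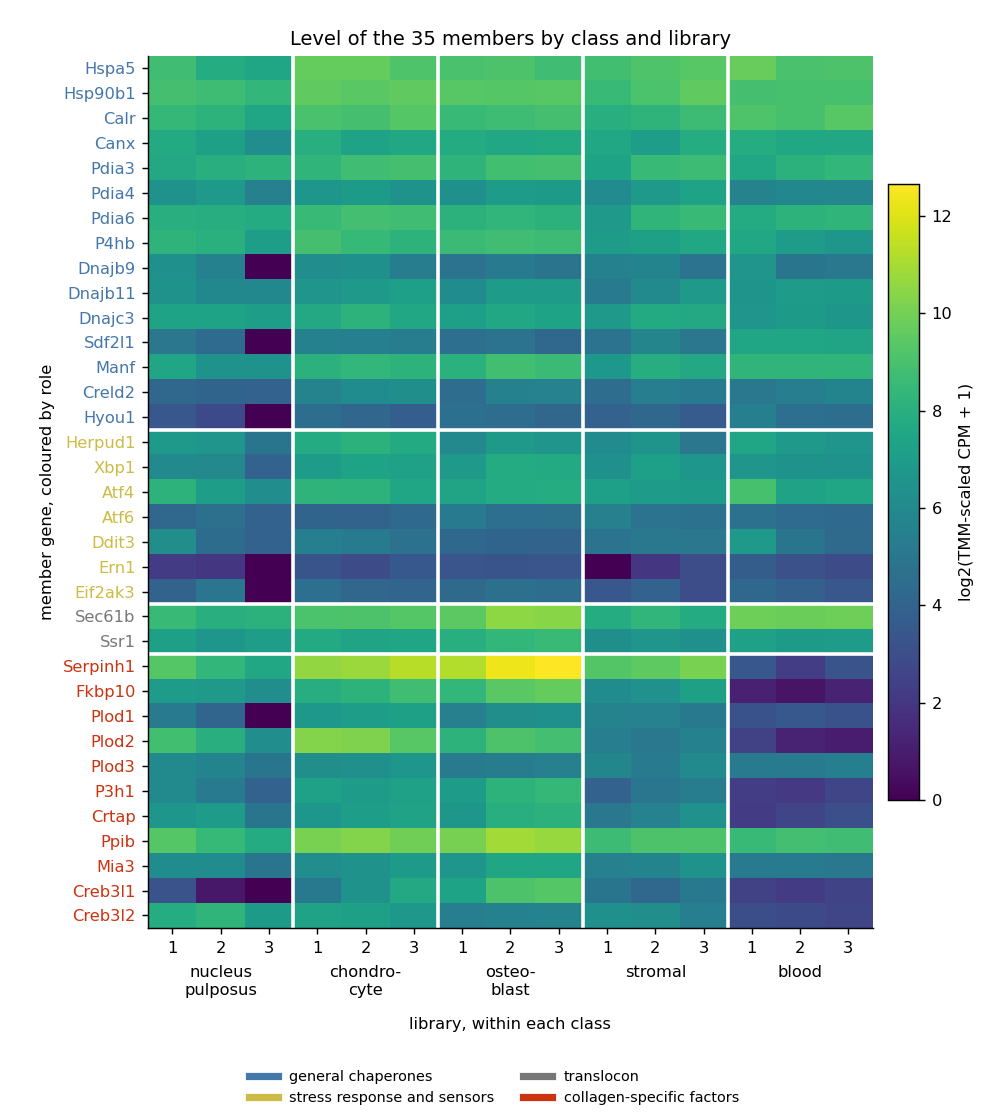
Heat map of log2(TMM-scaled CPM + 1) for the 35 members (rows, names coloured by role) in the 15 sums of 5 classes and 3 libraries (columns). The collagen-specific block turns dark in blood, apart from Ppib, Plod3 and Mia3, while the general chaperone block stays similar across classes, and the nucleus pulposus of library 3 (8 cells) has members listed at 0.

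Tests were made with edgeR's quasi-likelihood test in 1 fit of the 14 sums of at least 10 cells, with the library as block, and a gene was called at a Benjamini-Hochberg adjusted p under 0.05 over the 13346 genes tested. Each log2 fold change is given with its standard error (SE). The comparisons share sums, so their values are set side by side and are not independent. Against blood, the mean of the chondrocyte, osteoblast and stromal classes had 16 members higher and 4 lower of 35, where 27.8% and 36.6% of all genes tested were called in those directions. All 11 collagen-specific factors were called higher, with a median log2 fold change of 4.37, while 4 of 15 general chaperones were higher and 3 lower, with a median of -0.06. The median of all genes tested was -0.16, and -0.04 with RLE or 0.01 with DESeq2 size factors, so fold changes near 0 against blood have no fixed sign. Under the combined exclusion the counts were 17 higher and 4 lower, against 26.6% and 38.1% of all genes.

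Nucleus pulposus against blood gave 12 members higher and 8 lower, where 27.6% and 27.4% of all genes were called, and the median of all genes tested was -0.13. Among them were 9 of 11 collagen-specific factors, all higher, with a median log2 fold change of 3.80 over the 11, and 9 of 15 general chaperones, 3 higher and 6 lower, with a median of -0.18. Under the combined exclusion 13 were higher and 9 lower, against 27.2% and 29.5% of all genes, and without library 2 the counts were 7 and 2, against 17.3% and 12%. Collagen chains were at 140 to 303 CPM in the blood sums, and how far free RNA adds to these or to the low collagen-factor levels there was not tested.

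Among general chaperones, Hspa5 binds unfolded chains of nearly all secreted proteins. Its level was 433, 228 and 177 CPM in nucleus pulposus, 814, 801 and 576 in chondrocytes, 520.3, 549 and 442 in osteoblasts, 457, 577 and 673 in stromal cells and 832, 512 and 561 in blood. The 3 nucleus pulposus values were below those of every other class, chondrocytes lay above osteoblasts, and stromal cells and blood overlapped both. Within blood, promyelocytes and plasma cells lay above nucleus pulposus. B lineage cells (410, 268 and 362 CPM), erythroid cells (404, 341 and 323), late neutrophils and macrophages or monocytes overlapped it. Against chondrocytes the log2 fold change was -1.22 (SE 0.33, edgeR adjusted p = 0.0355), and against blood -1.01 (SE 0.32, edgeR adjusted p = 0.0192). Against osteoblasts it was -0.70 (SE 0.32, edgeR adjusted p = 0.147), and it passed under the combined exclusion, at -1.12 (SE 0.25, edgeR adjusted p = 0.00419).

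Creld2, a folding factor induced by stress, was the general chaperone with the largest difference between nucleus pulposus and chondrocytes. It stood at 18.4, 15.9 and 14.7 CPM in nucleus pulposus and at 49.0, 69.6 and 76.9 in chondrocytes, with no overlap. The log2 fold change was -1.75 (SE 0.27, edgeR adjusted p = 0.00188). Hyou1, a large relative of Hsp70 proteins, had 9.98, 6.06 and 0 CPM in nucleus pulposus (13, 8 and 0 UMIs), 22.6, 17 and 12.8 in chondrocytes and 23.7, 22 and 17.3 in osteoblasts. It was lower in nucleus pulposus than in chondrocytes (-1.30, SE 0.30, edgeR adjusted p = 0.0191), osteoblasts (-1.61, SE 0.31, edgeR adjusted p = 0.00266) and blood (-2.02, SE 0.29, edgeR adjusted p = 0.000106). Manf, a small secreted factor induced by stress, was lower than in osteoblasts (-1.43, SE 0.38, edgeR adjusted p = 0.0178) and missed the threshold against chondrocytes (-1.14, edgeR adjusted p = 0.0791).

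Sdf2l1, which works with Hspa5 and its J-protein partners, was the general chaperone that set blood apart. Blood had 175, 179 and 170.1 CPM, against 31.5, 20.5 and 0 in nucleus pulposus, 45.6, 43.8 and 39.7 in chondrocytes, 23.7, 27.5 and 18.7 in osteoblasts and 27.3, 53.8 and 31.9 in stromal cells. No connective tissue value reached those of blood, with a log2 fold change of -2.40 (SE 0.16, edgeR adjusted p = 1.05e-07) for the 3 connective classes together. P4hb is counted here with the general disulfide isomerases but is also the beta subunit of collagen prolyl 4-hydroxylase. It was 301, 258 and 132 CPM in nucleus pulposus, 493, 359.6 and 289.7 in chondrocytes, 400.2, 445 and 409 in osteoblasts, and 182, 123 and 101 in blood. Its log2 fold change of the connective classes over blood was 1.12 (SE 0.22, edgeR adjusted p = 0.000669), the largest of the 4 general chaperones called higher, the others being Pdia4, Dnajc3 and Pdia3. Canx, the membrane lectin, varied least, with class means of 144 to 204 CPM.

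Within blood, general chaperone levels differed between cell types. Promyelocytes, which fill granules with secretory proteins, had general chaperones at 4835, 5541 and 5476 CPM, and late neutrophils at 2226, 1609.7 and 1563, with no overlap. Plasma cells, which secrete antibody, had 8283, 11451 and 3784 CPM, on 2, 5 and 4 cells. In those plasma cells Hsp90b1, the chaperone of immunoglobulins and integrins, reached 3068, 3789 and 836 CPM and Xbp1 889, 735 and 409, while Serpinh1 had 0, 0 and 1 UMIs. The plasma cells of libraries 1 and 2 had the highest general chaperone sums of any class, while in the 3 libraries plasma cell UMIs of collagen-specific factors without Ppib were 0.00818 to 0.0140 times those of general chaperones. Sdf2l1 was also high in promyelocytes, at 263, 364 and 298 CPM, against 28.7, 21.1 and 17.9 in late neutrophils. Erythroid cells had 31.1, 52.8 and 43.1 CPM of it, and B lineage cells 96.3, 100 and 98.3. Macrophages or monocytes had 155, 176 and 135, and plasma cells 486, 490 and 186. The high level of the blood sums was thus not shared by all their cell types.

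Among collagen-specific factors, Serpinh1, the chaperone of the collagen triple helix, had the widest range. Its level was 2329, 5183 and 6481 CPM in osteoblasts, 1581, 1756 and 2491 in chondrocytes, 625, 732 and 1104 in stromal cells, 648, 336 and 191 in nucleus pulposus and 9.65, 3.95 and 8.79 in blood. Within each library osteoblasts were above chondrocytes and chondrocytes above the remaining classes, while stromal cells and nucleus pulposus overlapped. Nucleus pulposus was lower than chondrocytes by a log2 fold change of -1.78 (SE 0.46, edgeR adjusted p = 0.0304) and lower than osteoblasts by -3.04 (SE 0.49, edgeR adjusted p = 0.000878). Under the combined exclusion the first was -2.36 (SE 0.30, edgeR adjusted p = 0.000114), and a difference from stromal cells passed too, at -1.34 (SE 0.29, edgeR adjusted p = 0.0054). That exclusion drops nucleus pulposus cells on cartilage matrix markers, so these 2 values are not independent of it. Osteoblasts were above chondrocytes by 1.26 (SE 0.38, edgeR adjusted p = 0.0316). A Serpinh1 UMI was found in 70.0%, 88.2% and 62.5% of nucleus pulposus cells and in 4.51%, 2.51% and 6.05% of blood cells. Thinned to 3000 UMIs, with shallower cells left out, the shares were 63.7% and 59.1% in nucleus pulposus of libraries 1 and 2 (91 and 115 cells) and 1.52%, 0.783% and 1.93% in blood.

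Fkbp10 (FKBP65), a prolyl isomerase of procollagen, had the same order at its extremes, with 335, 685 and 822 CPM in osteoblasts and 1.25, 0.611 and 1.28 in blood. It was 123, 115 and 73.6 in nucleus pulposus, 237, 295 and 437 in chondrocytes and 69.5, 83.7 and 148 in stromal cells. The difference of nucleus pulposus from osteoblasts was -2.08 on the log2 scale (SE 0.36, edgeR adjusted p = 0.00146). That from chondrocytes missed the threshold at -1.15 (SE 0.35, edgeR adjusted p = 0.0552).

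The 3 lysyl hydroxylases differed in their order of classes. Plod1, which acts on the helical part of collagen, was 106, 134 and 146 CPM in chondrocytes against 37.6, 16.7 and 0 in nucleus pulposus, a log2 fold change of -2.20 (SE 0.36, edgeR adjusted p = 0.00302). Plod2, which acts on the end peptides that form crosslinks, was also highest in chondrocytes, at 1252, 1178 and 667 CPM, with 289, 549 and 469.8 in osteoblasts and 453, 251 and 73.6 in nucleus pulposus. In stromal cells it was 42.2, 32.9 and 45.6 CPM, below every nucleus pulposus value, and nucleus pulposus exceeded them by a log2 fold change of 2.88 (SE 0.57, edgeR adjusted p = 0.00413). It was 1.38 (SE 0.44, edgeR adjusted p = 0.0409) under the combined exclusion. There the nucleus pulposus of library 1 had 202 CPM and its stromal cells 151 (17 UMIs), so that the classes overlapped across libraries. Plod3, which also adds sugars to hydroxylysine, varied least of the 11 collagen-specific factors, with 36.4, 36.0 and 42.9 CPM in blood and 34.6, 38.5 and 45.1 in osteoblasts. Chondrocytes had 74.2, 80.7 and 99.98 CPM, and osteoblasts were lower by -1.09 (SE 0.18, edgeR adjusted p = 0.00095).

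P3h1, Crtap and Ppib form 1 enzyme complex, and their orders of classes differed. P3h1, the prolyl 3-hydroxylase itself, was 63.7, 37.1 and 14.7 CPM in nucleus pulposus, 149, 123 and 153 in chondrocytes and 124, 288 and 341 in osteoblasts. It was lower in nucleus pulposus than in both, at -1.32 (SE 0.38, edgeR adjusted p = 0.0451) and -2.11 (SE 0.40, edgeR adjusted p = 0.00234). Crtap, its partner, was 101, 123 and 29.4 CPM in nucleus pulposus and 101, 137 and 156 in chondrocytes, with a log2 fold change of 0.02 (SE 0.24, edgeR adjusted p = 0.99). Over stromal cells, at 32.3, 47.8 and 84.4 CPM, Crtap was higher in nucleus pulposus by 1.35 (SE 0.27, edgeR adjusted p = 0.00447). Ppib, a cyclophilin that also serves other secreted proteins, was 375, 469.6 and 432 CPM in blood and 633, 359 and 221 in nucleus pulposus, which did not pass (0.27, SE 0.32, edgeR adjusted p = 0.494). Mia3, which packs procollagen for export, was 69.9, 71.2 and 29.4 CPM in nucleus pulposus and 98.2, 172 and 182 in osteoblasts (-0.95, SE 0.28, edgeR adjusted p = 0.0292).

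The related factors Creb3l1 and Creb3l2 had different orders of classes. Creb3l1 was 160.1, 565 and 642 CPM in osteoblasts, 33.5, 91.0 and 199 in chondrocytes, 29.8, 17.9 and 34.2 in stromal cells and 4.41, 3.82 and 5.05 in blood. Nucleus pulposus had 11, 1 and 0 UMIs of it (8.45, 0.758 and 0 CPM), and with the mixed nucleus pulposus cells left out 1, 1 and 0. A Creb3l1 UMI was found in 8.18%, 0.840% and 0% of nucleus pulposus cells, where 3 UMIs in library 3 would already be 44.1 CPM, and in 3.67%, 3.61% and 4.85% of blood cells. The nucleus pulposus level thus overlapped that of blood. Its log2 fold change against chondrocytes was -3.93 (SE 0.84, edgeR adjusted p = 0.0129) and against osteoblasts -6.16 (SE 0.86, edgeR adjusted p = 0.000343). The chondrocyte values also ran over a wide range, and Col1a1 had the same order of libraries, at 6171, 16490 and 38448 CPM. Osteoblast gate markers in those sums were 1008, 1685 and 389 CPM, without TMM factors. The part of osteoblast RNA in these sums was not tested.

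Creb3l2 was highest in nucleus pulposus, with 232, 307 and 118 CPM, followed by chondrocytes with 155, 145 and 105. Stromal cells had 81.9, 74.7 and 41.0, osteoblasts 41.8, 45.7 and 48.9, and blood 7.24, 6.14 and 5.31 CPM. Nucleus pulposus and chondrocytes overlapped across libraries, but within libraries 1 and 2 nucleus pulposus was higher. In library 3 the values were 118 and 105 CPM. That gap is smaller than the 14.7 CPM of 1 nucleus pulposus UMI there, so the order is not resolved in that library. The log2 fold changes were 0.90 over chondrocytes (SE 0.24, edgeR adjusted p = 0.0365), 2.40 over osteoblasts (SE 0.25, edgeR adjusted p = 6.08e-05), 1.95 over stromal cells (SE 0.26, edgeR adjusted p = 0.00048) and 5.33 over blood (SE 0.26, edgeR adjusted p = 4.12e-08). Creb3l2 was the 1 member called higher in nucleus pulposus than in chondrocytes, and it was called higher in each of the other 3 comparisons as well. Against chondrocytes the call was lost under 7 alternatives, with log2 fold changes of 0.56 to 0.87 and edgeR adjusted p of 0.0567 to 0.746, including the fits without library 2 and without library 3. Against stromal cells it was lost without library 2 (1.75, edgeR adjusted p = 0.0634) and with only the classes compared (1.59, edgeR adjusted p = 0.0543). Its share of nucleus pulposus cells with a UMI was 75.5%, 90.8% and 50.0%, against 5.85%, 5.65% and 4.89% of blood cells. In mm10, Creb3l1 lies at chr2:91982328-92024502 and Creb3l2 at chr6:37327255-37442146.

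**Figure D3:**
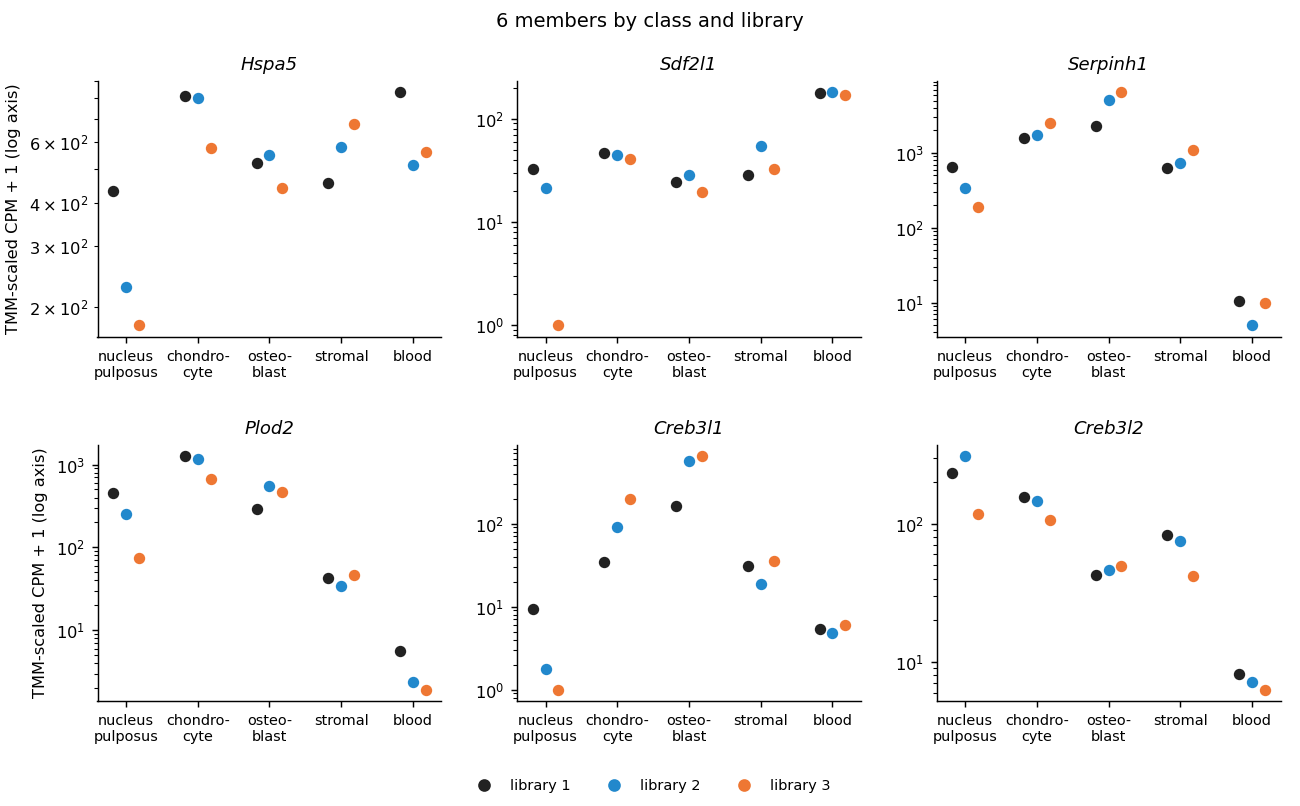
TMM-scaled CPM + 1 on a log axis for 6 members by class, with 1 point for each library (colours). Hspa5 and Sdf2l1 represent the general chaperones, Serpinh1 and Plod2 fall from osteoblasts or chondrocytes to blood, and Creb3l1 and Creb3l2 differ in order, with Creb3l1 at 0 to 8.45 CPM in nucleus pulposus and Creb3l2 at 118 to 307.

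Counted over all members, nucleus pulposus against chondrocytes gave 1 member higher and 9 lower of 35, where 5.95% and 4.2% of all genes tested were called in those directions. The members called lower were 3 general chaperones, 2 stress genes and 4 collagen-specific factors, and all 15 general chaperones had a negative fold change, with a median of -0.63 against -0.06 for all genes tested. Under the combined exclusion, 1 was higher and 21 lower, against 9.64% and 10.5% of all genes. Of its 3 changes, leaving out the mixed nucleus pulposus cells alone, which were picked on cartilage matrix markers, gave 18 lower, against 8.09% of all genes. Leaving out the mixed stromal cells alone gave 14 lower, against 5.68%, and the osteoblast sum of library 1 alone 13 lower, against 5.19%. Without library 2, where nucleus pulposus rests on 1 sum, edgeR called 0 members against 0.466% of all genes, with 4 lower at an unadjusted p under 0.05. With only the nucleus pulposus and chondrocyte sums in the fit edgeR also called 0, against 3.76% of all genes, with 1 higher and 18 lower at an unadjusted p under 0.05. Without library 1, 1 was higher and 18 lower, against 7.82% and 7.85%, and without library 3 the counts were 0 and 2, against 3.24% and 1.29%. DESeq2 gave 1 higher and 18 lower, against 7.77% and 6.03%.

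Against osteoblasts, 2 members were higher and 13 lower in nucleus pulposus, where 13.7% and 10% of all genes were called. Of the 11 collagen-specific factors 2 were higher (Creb3l2 and Plod3) and 7 lower, with a median log2 fold change of -1.31, and of the 15 general chaperones 3 were lower, with a median of -0.37. The combined exclusion, which drops 1 of the osteoblast sums compared, gave 1 higher and 19 lower, against 15.4% and 13.6%. Without library 2 the counts were 1 higher and 1 lower, against 2.63% and 0.916%.

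Against stromal cells, 3 members were higher (Plod2, Creb3l2 and Crtap) and 0 lower, where 11.8% and 9.94% of all genes were called, with 5 lower at an unadjusted p under 0.05. DESeq2 gave 3 higher and 2 lower, against 11.1% and 11.7% of all genes. Under the combined exclusion 3 were higher and 6 lower, against 12.3% and 8.96%, and the 4 general chaperones among the lower included Hspa5 (-1.51, SE 0.23, edgeR adjusted p = 0.000437). Without library 2, edgeR called 0 members against 2.87% of all genes, with 4 higher at an unadjusted p under 0.05. Without library 1, 3 were higher and 8 lower, against 9.72% and 8.76%.

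Osteoblasts against chondrocytes gave 6 members higher and 6 lower, where 9.22% and 12.9% of all genes were called. Those higher were Serpinh1, Fkbp10, Mia3, Creb3l1 and both translocon genes, and those lower were Plod1, Plod3, Creb3l2, Herpud1, Creld2 and Sdf2l1. Of the 15 general chaperones 0 were called higher in osteoblasts by edgeR or DESeq2, and 0 had a higher value at an unadjusted p under 0.05. Under the combined exclusion 10 were higher and 7 lower, against 12% and 16%, with the osteoblast sum of library 1 alone left out 8 and 4, against 12.1% and 12.9%, and without library 2 the counts were 0 higher and 2 lower, against 2.46% and 4.6%.

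**Figure D4:**
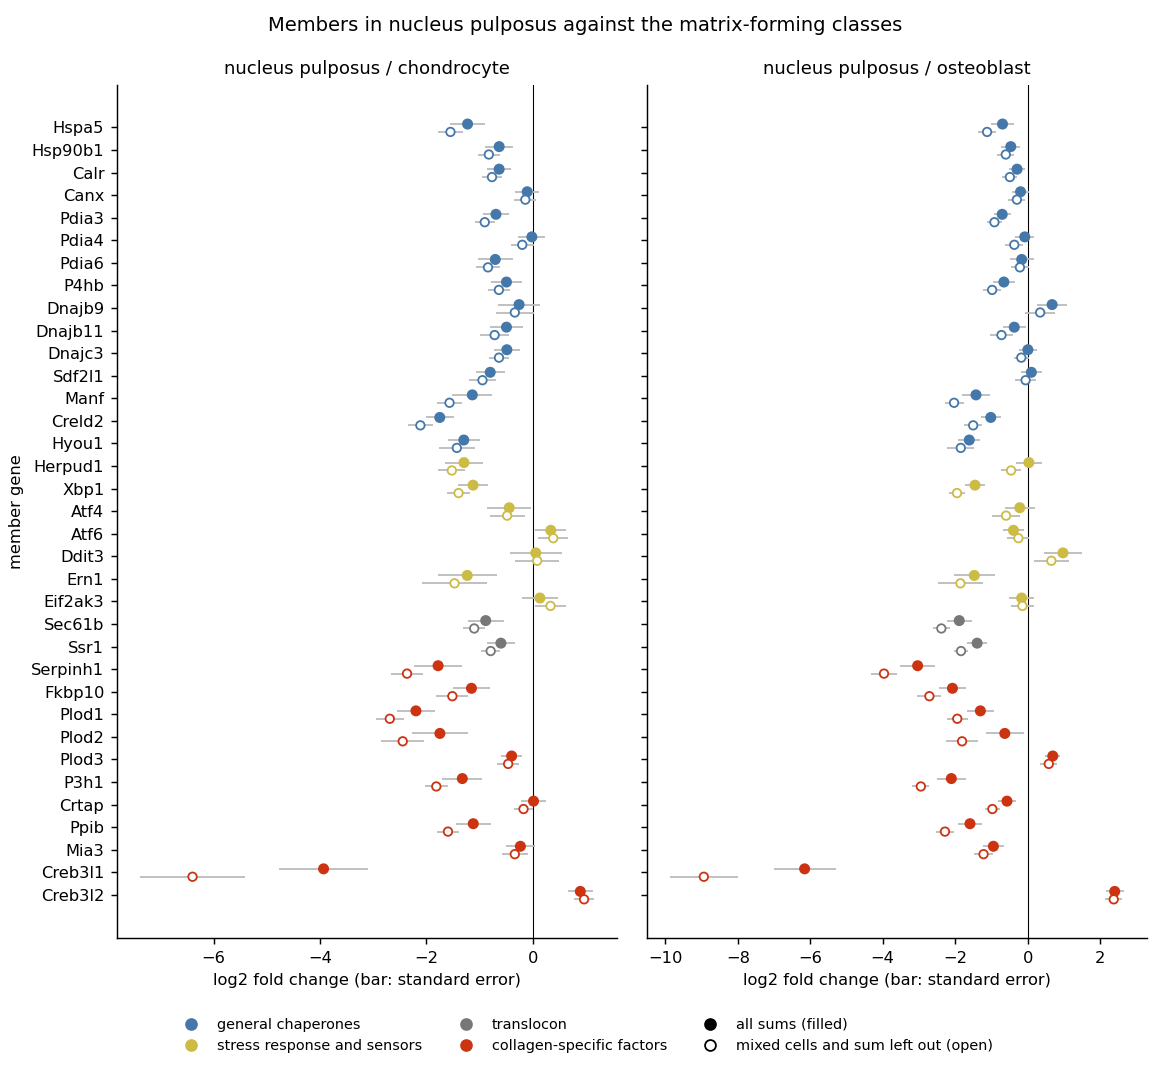
Log2 fold change of the 35 members in nucleus pulposus over chondrocytes (left) and osteoblasts (right), with bars of 1 SE, coloured by role. Filled points use all sums and open points leave out the mixed cells and the osteoblast sum of library 1, where Creb3l1 rests on 2 UMIs and its value depends on the prior count of the fit. Most members lie left of 0 and Creb3l2 lies right of it in both panels.

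Of the 7 stress genes, Xbp1 and Herpud1 were lower in nucleus pulposus than in chondrocytes. Xbp1, the factor activated by Ern1, was 66.8, 62.1 and 14.7 CPM in nucleus pulposus, 123, 161 and 153 in chondrocytes and 115, 222 and 216 in osteoblasts. Its log2 fold change was negative against chondrocytes (-1.12, SE 0.28, edgeR adjusted p = 0.0279) and osteoblasts (-1.46, SE 0.29, edgeR adjusted p = 0.00333). Herpud1, which acts in the disposal of misfolded protein, was highest in chondrocytes, with 218, 277 and 210.2 CPM, against 113, 96.2 and 29.4 in nucleus pulposus and 61.9, 113 and 95.3 in osteoblasts. Its log2 fold change was -1.29 (SE 0.36, edgeR adjusted p = 0.0433) for nucleus pulposus and -1.32 (SE 0.31, edgeR adjusted p = 0.00836) for osteoblasts, each against chondrocytes.

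Atf4 and Ddit3 were highest in library 1 in both nucleus pulposus and blood. Atf4, which is translated under stress, was 495 CPM in the blood of library 1 and 157 and 177 in the others, and 293, 136 and 73.6 in nucleus pulposus. Ddit3 (CHOP), a factor of prolonged stress, was 112, 28.8 and 19.9 CPM in blood and 76.8, 21.2 and 14.7 in nucleus pulposus. Late neutrophils of library 1 stood furthest apart, with Ddit3 at 568 CPM against 58.2 and 34.4, and Atf4 at 1598 against 299 and 325. Immediate early and heat shock genes, which respond to tissue handling, summed to 10814, 6129 and 603 CPM in nucleus pulposus and 5411, 3025 and 3464 in blood, and their part in these differences was not tested. In the 6 comparisons of the 5 classes edgeR called none of Atf4, Ddit3 and Atf6, and DESeq2 called Atf6 higher in osteoblasts than in chondrocytes. The sensor Ern1 had 5, 4 and 0 UMIs in nucleus pulposus, and Eif2ak3 was at 30.3 CPM or less in the 15 sums of the 5 classes.

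Both translocon genes had their highest class mean in osteoblasts, though in library 1 Sec61b was higher in blood. Sec61b, a subunit of the channel, was 704, 1462 and 1367 CPM in osteoblasts, 944, 887 and 919.5 in blood, 545, 556 and 637 in chondrocytes, 366, 243 and 279.5 in nucleus pulposus and 226, 319.8 and 219 in stromal cells. It was lower in nucleus pulposus than in osteoblasts (-1.89, SE 0.35, edgeR adjusted p = 0.00223) and blood (-1.55, SE 0.34, edgeR adjusted p = 0.00221). Ssr1, of the translocon-associated complex, was 246, 338 and 373 CPM in osteoblasts, against 147, 98.5 and 132 in nucleus pulposus (-1.40, SE 0.28, edgeR adjusted p = 0.00321).

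Within the nucleus pulposus gate, many cells with at least 3 of the 4 markers fell under the 1% mitochondrial limit, namely 430, 33 and 17 cells with a median mitochondrial share of 0.0478%, 0.0249% and 0.0483%. Few cells lay near the limit, with 12, 1 and 1 between 0.5% and 1% and 11, 1 and 3 between 1% and 1.5%. These mitochondria-poor cells had median UMIs of 2544.5, 3450 and 1250, against 9046, 10596 and 4442.5. In a fit of their own over libraries 1 and 2, 23 of the 35 members were higher in cells above the limit and 0 lower (0 also at an unadjusted p under 0.05), where 11.3% and 5.96% of 8105 genes were called. Hyou1, Ern1 and Creb3l1 had too few counts to be tested, and members can pass that filter through the group where they are high. Of those called, 10 were general chaperones, 8 collagen-specific factors, 4 stress genes and 1 a translocon gene.

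Hspa5 was 433, 228 and 177 CPM above the limit and 69.8, 21.2 and 36.4 below it, a log2 fold change of 2.81 (SE 0.35, edgeR adjusted p = 5.55e-14). Serpinh1 was 648, 336 and 191 against 117, 42.3 and 109 (2.61, SE 0.32, edgeR adjusted p = 2.33e-14). Neither pair of ranges overlapped. P3h1 had 83, 49 and 1 UMIs above the limit and 4, 0 and 0 below it, and Mia3 differed by 3.14 (SE 0.53, edgeR adjusted p = 1.15e-07). Sec61b differed least, at 366, 243 and 279.5 CPM against 409, 239.7 and 109 (-0.14, SE 0.27, edgeR adjusted p = 0.797). Crtap, Ppib, Canx, Dnajb11, Sdf2l1, Creld2, Atf6 and Ddit3 were not called either. The summed collagen chains went from 841, 367 and 437 CPM below the limit to 18411, 5907 and 3399 above it, and 10 of 10 immediate early and heat shock genes were called higher. The part of depth, mitochondrial share and cell damage in these differences was not tested. This fit has 4 sums and 1 residual degree of freedom, and DESeq2 called 9 of the 26 members it gave an adjusted p, all higher, against 2.7% higher and 0.444% lower of all genes. Without the library block edgeR called 11, all higher, against 3.27%. Leaving out the mixed nucleus pulposus cells gave 20 higher and 0 lower, against 11.8% and 7.38% of genes.

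**Figure D5:**
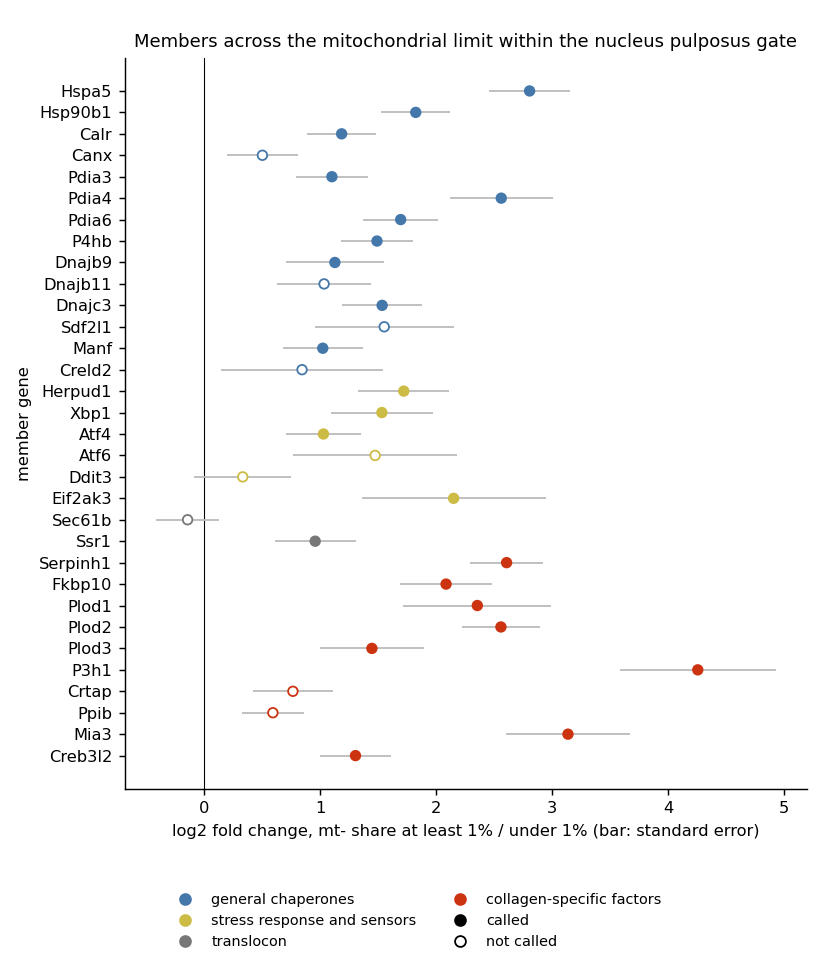
Log2 fold change of the 32 members tested in nucleus pulposus gate cells with a mitochondrial share of at least 1% over those under 1%, with bars of 1 SE, coloured by role, filled where called. All but Sec61b lie right of 0, with P3h1 and Mia3 furthest right.

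Other genes of the same pathways were counted from lists drawn up by function. Of 21 other general folding and quality control genes tested, 7 were higher and 6 lower in the connective classes than in blood, and 0 higher and 2 lower in nucleus pulposus than in chondrocytes (0 and 7 at an unadjusted p under 0.05). The first counts are near the shares of all genes called, 27.8% and 36.6%. Txndc5, a disulfide isomerase, was 102, 120.5 and 147 CPM in nucleus pulposus and 24.5, 38.4 and 40.1 in blood (1.86, SE 0.37, edgeR adjusted p = 0.00116). Pdia5 was 36.4, 77.0 and 82.4 CPM in osteoblasts against 8.45, 3.03 and 0 in nucleus pulposus (-3.40, SE 0.50, edgeR adjusted p = 0.000489). Of 21 other translocon, signal peptidase and sugar transfer genes, 0 were higher and 10 lower in nucleus pulposus than in osteoblasts (0 and 12 at an unadjusted p under 0.05), and 6 were higher and 0 lower in osteoblasts than in chondrocytes, where 10% of all genes were called lower in the first comparison and 9.22% higher in the second. Sec61a1, the pore of the channel, was 180.1, 253 and 272 CPM in osteoblasts and 60.7, 40.2 and 29.4 in nucleus pulposus (-2.26, SE 0.30, edgeR adjusted p = 0.000246).

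Of 23 other genes of collagen modification and export, 19 were higher and 2 lower in the connective classes than in blood, with a median log2 fold change of 4.63, where 27.8% and 36.6% of all genes were called. Nucleus pulposus had 1 higher and 5 lower against chondrocytes, where 5.95% and 4.2% of all genes were called. Against osteoblasts it had 3 higher, about the share of all genes called (13.7%), and 8 lower, where that share was 10%. The gene that was higher in both was P4ha3, a catalytic subunit of collagen prolyl 4-hydroxylase. It had 69, 131 and 0 UMIs in nucleus pulposus (53.0, 99.3 and 0 CPM), 4.33, 5.16 and 3.85 CPM in chondrocytes, 9.10, 0.344 and 0.885 in osteoblasts and 0 UMIs in every stromal sum. Its log2 fold change over chondrocytes was 4.03 (SE 0.63, edgeR adjusted p = 0.00371). P3h3, a prolyl 3-hydroxylase relative, went the other way, with 29.9, 9.85 and 0 CPM in nucleus pulposus and 104, 125 and 158 in chondrocytes (-2.51, SE 0.38, edgeR adjusted p = 0.00185). Bmp1, which cuts the end of procollagen, was 393, 990.5 and 1264 CPM in osteoblasts against 26.9, 23.5 and 14.7 in nucleus pulposus (-4.64, SE 0.38, edgeR adjusted p = 1.14e-05).

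Collagen chains, the cargo of these factors, gave 0 of 16 higher and 7 lower in nucleus pulposus than in chondrocytes (0 and 13 at an unadjusted p under 0.05), and 3 higher and 5 lower than in osteoblasts, where 4.2% of all genes were called lower in the first, and 13.7% higher and 10% lower in the second. Their summed level was 18411, 5907 and 3399 CPM in nucleus pulposus, 66467, 92222 and 109257 in chondrocytes and 48893, 248199 and 266922 in osteoblasts. Over the 14 sums, the summed collagen-specific factors had a Spearman correlation of 0.95 with the summed collagen chains and the general chaperones one of 0.54. Without the blood sums (n = 11) the values were 0.94 and 0.66. The points share libraries and, within a sum, the same cells and depth, so these are descriptions. Col2a1, Col9a1, Col9a2 and Col9a3 are chains of this list that also served as markers of the chondrocyte class. Cells entered that class in part through them. The chondrocyte chain levels, the lower counts in nucleus pulposus and the correlations are therefore not independent of the gate. Of 10 other stress targets, 0 were called between nucleus pulposus and chondrocytes by edgeR (1 higher and 1 lower at an unadjusted p under 0.05). Against osteoblasts 2 were higher and 1 lower, near the shares of all genes called, 13.7% and 10%. The largest difference was that of Atf3, a factor of acute stress, at 1536.5, 548 and 44.1 CPM in nucleus pulposus. The immediate early and heat shock genes had the same order of libraries there (10814, 6129 and 603 CPM), and their part was not tested.

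The genes whose log2 CPM was most like that of Serpinh1 over the 14 sums were B3gnt9, Rcn1 and Rcn3, each with a Spearman correlation of 0.982, followed by Col1a2 and Ptgis at 0.978. For Hspa5 the nearest were Snx18 (0.798), Dpp9 (0.793), Gm16740 and Col26a1 (0.789 each) and Crtc3 (0.78). Serpinh1 thus had close companions over these sums and Hspa5 had none above 0.798.

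Between cells of a class, the share of collagen-specific UMIs among collagen-specific and general UMIs was computed for cells with at least 20 such UMIs. Its median was 42.5% in the nucleus pulposus of libraries 1 and 2, with the middle 80% of cells of library 2 between 28.5% and 55.6%. Chondrocyte medians were 53.5%, 55.6% and 54.7%. Osteoblast medians were 56.3%, 73.4% and 75.3%, stromal medians 39.8%, 34.1% and 35.7%, and blood medians 11.8%, 16.7% and 14.3%. Nucleus pulposus thus lay between stromal cells and chondrocytes in libraries 1 and 2. In library 3 its median was 31.1%, on 4 cells.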

How the data were processed

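Gene by barcode UMI counts of 3 libraries were used as deposited. Per the submitters' processing notes the authors used Cell Ranger 3.0.2, Seurat 4 and mm10, while the deposited matrix headers name 3.0.1 for library 1 and 6.0.0 for the others. The 3' kit counts transcript ends, so levels are not compared between genes. Cells with at least 500 genes and at most 15% mt- UMIs were kept, and UMIs were summed by class and library over at least 10 cells. No doublets were removed, and removal with Scrublet was an alternative. Tests used edgeR 4.0.16 (filterByExpr, TMM, library block), with DESeq2 1.42.0 as alternative (R 4.3.3, Python 3.11.15). The library number pairs sums because they come from the same pool, and deviations of the same library correlated with a median r of 0.24 (0.01 to 0.49, 26 pairs). On simulated data 73.9% to 78.4% of genes changed by 2 on the log2 scale were recovered between nucleus pulposus and chondrocytes, osteoblasts or blood, and 55.7% against stromal cells, and 10.5% to 18.6% of those changed by 1 (11209 genes). The simulation gave every gene the same fixed dispersion, with no library effect and no class difference beyond the changes set. Real sums vary in all of these, so the rates need not hold for them. Members and lists were chosen with earlier results of these data known. Every member could be named. From each other list the rule allowed the 2 largest and 2 smallest fold changes called, at a mean of at least 50 CPM. P-values were adjusted over all genes tested. Intervals and floors cover counting error only.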

Additional observations from a re-analysis of the deposited data

How the results depend on the processing

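Counts of members called (either direction) between nucleus pulposus and chondrocytes, 10 with all choices as described, were 19 with DESeq2, 6 without the replicate block, 0 with only the classes compared, 23 with no lower mt- limit, 19 without nucleus pulposus cells with chondrocyte markers, 22 under the combined exclusion, and 0 to 19 with 1 library left out. Against osteoblasts the 15 became 3 with only the classes compared and 2 to 20 with 1 library left out. Against stromal cells the 3 became 5, 1, 10, 8 and 9 with DESeq2, only the classes compared, no lower mt- limit, cells with chondrocyte markers left out and the combined exclusion, and 0 to 11 with 1 library left out. Against blood 20 became 9 to 18 with 1 library left out. Osteoblasts against chondrocytes gave 7 after Scrublet removal and 2 to 20 with 1 library left out, instead of 12. The 23 calls against mitochondria-poor cells became 9 with DESeq2, 15 with no filter and 11 without the replicate block. The counts in this section are of members only, and the share of all genes called also moved between alternatives. The share called lower in nucleus pulposus than in chondrocytes was 4.2% as described and 10.5% under the combined exclusion. A changed count alone thus does not separate the members from all genes. The stromal ratio was 0.502 with 1 more marker per gate.

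Hspa5 in the connective classes against blood, -0.07 and not called, changed sign to 0.063 with DESeq2, 0.062 with RLE, 0.025 with at least 200 genes, 0.022 with at least 5 cells per sum, 0.044 without mixed stromal cells, 0.069 under the combined exclusion, and ranged from -0.26 to 0.16 with 1 library left out. Over all alternatives, the named members' values stayed on the same side of the threshold in 977 cases, lost the call in 70, gained it in 24 and changed sign in 7. Without the replicate block the other counts were 14 against osteoblasts, 2 against stromal cells, 19 against blood, 19 for the connective classes against blood and 8 for osteoblasts against chondrocytes. With library 1 or 2 left out, nucleus pulposus rests on 1 sum, assumed to vary like the other classes. The 8 nucleus pulposus cells of library 3 limit what can be seen there.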
